A study of Homo sapiens with 17 samples.

Results

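The ethanol vehicle of a progesterone experiment was compared with untreated medium in Ishikawa cells, a line derived from a human endometrial adenocarcinoma used here to stand for the lining epithelium of the uterus. The 6 libraries described here were 3 control cultures left in control medium and 3 vehicle control cultures whose labels name Nap and EtOH, out of 17 libraries in the series, and they were picked by the column names of the count table and not by any measured value. All cultures were kept in charcoal-stripped serum, were treated for 24 h and were detached with trypsin before lysis. The treatment field of the vehicle control names 70% EtOH, and whether that is the stock or what reached the cells is not given in the sources used here. A legend of the study, for cultures measured by another assay, names a different percentage for the vehicle. Nap is not defined in the labels, so 2 further cultures labelled as Nap only, also kept for 24 h, were used to see what that component did without ethanol. Another 3 cultures, labelled Nap P4, received progesterone, and their values are given beside those of some genes without a test.

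Immediate early genes are transcribed within minutes of a growth factor, stress or membrane stimulus without new protein synthesis, and many of their products are transcription factors of the AP-1, EGR and NR4A families. Serum response factor (SRF) with its cofactors, activated by MAP kinases or by actin assembly, drives much of this class through a DNA element called the CArG box. The response usually fades within hours, and phosphatases of the DUSP family are among its feedback products. Ethanol itself is oxidized to acetaldehyde by alcohol dehydrogenases and then to acetate by aldehyde dehydrogenases.

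Total counts were 12712177 to 19704493 in control, 4999521 to 13403346 in vehicle control and 11941642 to 14111838 in Nap only cultures, with vehicle control replicate 1 the smallest. A count of 3, the most that an undetected gene allows, stood for 0.600 CPM (counts per 1e6 counts of the library) in that library and for 0.152 in control replicate 2, the largest, for counting error only. The mitochondrial 16S rRNA gene MT-RNR2 took 21.8%, 27.1% and 20.2% of the counts of control replicates 1, 2 and 3, and 23.4% to 24.6% in vehicle control, so control replicate 2 stood apart. Between replicates of the same group, counts differed by 1.54 to 20.6 times the chi-square expected from sampling, and the pairs with control replicate 2 were highest, so no pair was treated as one library. Long intergenic RNAs took 0.560% to 0.638% of counts in control, 0.616% to 0.617% in Nap only and 0.875% to 0.981% in vehicle control.

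There was an effect of the ethanol vehicle on a wide set of genes, most of them changed by a small amount and few by a large one. Of 12855 protein-coding genes tested with edgeR, 3089 (24.0%) passed an adjusted p of 0.05, of which 1616 were higher (12.6% of those tested) and 1473 lower (11.5%) in vehicle control than in control. The median size of these differences was 0.37 on the log2 scale. Only 143 of them differed by more than 1 log2 unit, 116 higher (0.902%) and 27 lower (0.21%), and all 15 that differed by more than 3 were higher. The 3 vehicle control cultures lay entirely above or below the 3 controls for 2901 of the 3089 (93.9%), against 40.8% of all protein-coding genes tested. Calls and separation were taken from the same libraries, so the higher share follows largely from the call. The 40.8% also includes the called genes. Higher genes had a greater total exonic length and more GC (medians 7872 bases and 51.6%) than lower genes (3662 bases and 44.3%), against 5210 bases and 47.9% for all tested. With offsets for length and GC content, 2698 genes were called, of which 40.7% were higher in place of 52.3%. Without vehicle control replicate 3 or replicate 2 the number called was 1563 or 1620.

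The Nap component without ethanol gave no calls. In Nap only against control cultures, edgeR called 0 of 13002 protein-coding genes (0.0%), as did DESeq2, and 92 (0.708%) had an unadjusted p under 0.05. That comparison rests on 2 cultures against 3, and a gene that did not pass is not shown to be unchanged. The direct comparison of vehicle control with Nap only called 3479 of 12935 genes (26.9%), 1895 higher (14.7%) and 1584 lower (12.2%). Nap only and vehicle control were each compared with the same control cultures, so their values are set side by side and not correlated. The direct comparison likewise shares its vehicle control cultures with the main one.

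**Figure D1:**
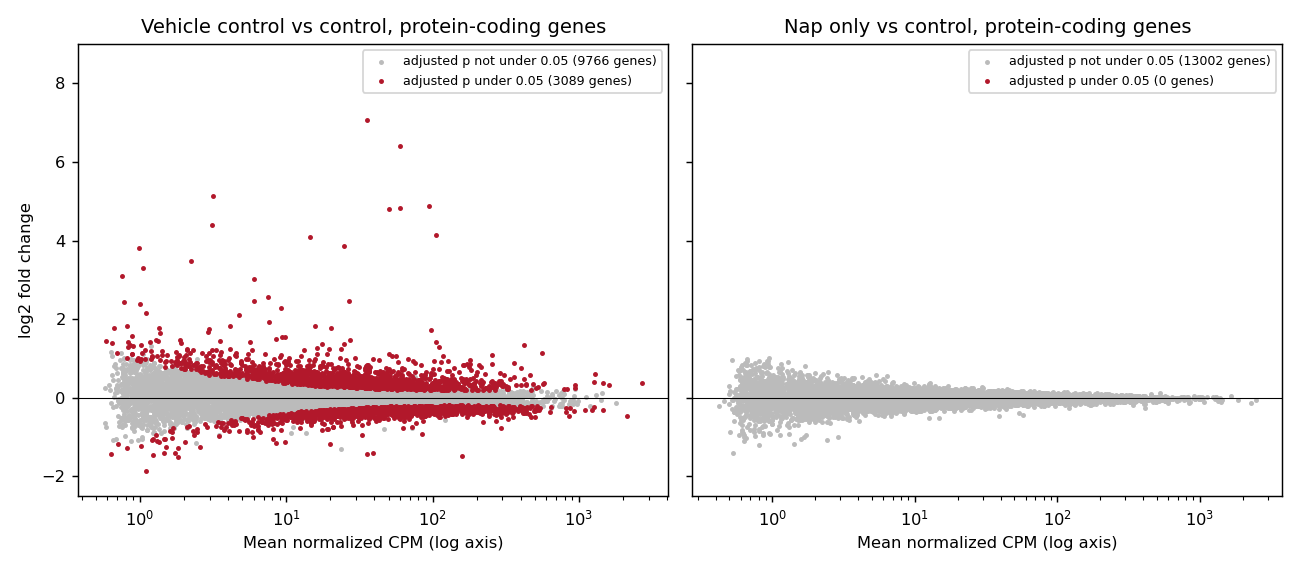
log2 fold change against mean normalized CPM (log axis) for each protein-coding gene tested, for vehicle control against control (left) and Nap only against control (right), with genes of adjusted p under 0.05 in red. The left panel holds 3089 red points, the highest of them FOSB at 7.08 and FOS at 6.42, and the right panel holds 0.

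The largest increases were in immediate early transcription factors. FOS (ENSG00000170345.10, chr14:75278774-75282230 on GRCh38), which pairs with JUN proteins to form AP-1, was at 1.59, 1.54 and 0.98 normalized CPM in control replicates 1, 2 and 3. It reached 122, 118 and 117 in vehicle control replicates 1, 2 and 3, and stayed at 1.59 and 2.32 in Nap only. Every vehicle control culture was thus far above every control and Nap only culture, and the difference was 6.42 ± 0.12 (log2 fold change ± SE, n = 3 and 3, adjusted p = 9.9e-21), or 85.5-fold.

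FOSB (chr19:45467995-45475179), a second AP-1 subunit of the FOS family, rose most, by 7.08 ± 0.22 (adjusted p = 7.1e-12). It was at 0.384, 0.902 and 0.226 CPM in control, from 7, 17 and 3 reads, at 56.6, 81.6 and 75.1 in vehicle control, and at 0.557 and 0.341 in Nap only. Because the control level was near the detection floor, the size of this ratio is less certain than its direction. JUN, the partner of both, rose by 4.08 ± 0.16, from 1.76, 1.49 and 1.73 to 25.1, 32.6 and 24.3 CPM. JUNB rose by 1.82, FOSL1 by 2.38, FOSL2 by 0.43 and JUND by 0.28, so each AP-1 subunit in the list was higher but over a wide range of sizes. ATF3, a stress-induced factor of the same leucine zipper class, rose by 3.03 ± 0.20 (10.7 ± 1.1 CPM against 1.37 ± 0.35, mean ± SD, n = 3 each).

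The EGR zinc finger factors moved in the same direction. EGR1 was at 4.61, 8.70 and 5.28 CPM in control and at 143, 210 and 191 in vehicle control, a difference of 4.89 ± 0.26 (adjusted p = 0.00015). EGR2 rose by 5.12 ± 0.33 from only 2, 5 and 2 reads in control to 24, 100 and 82 in vehicle control, so that its ratio depends on a handful of control reads. EGR3 (chr8:22687659-22693302) rose from 2.58, 3.50 and 3.77 to 39.7, 50.5 and 47.8 CPM, with 2.94 and 4.09 in Nap only, a difference of 3.87 ± 0.13 (adjusted p = 2.1e-15).

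The orphan nuclear receptors of the NR4A family, which act without a known hormone ligand, made up the next group. NR4A1 (chr12:52022832-52059507) was at 4.39, 4.19 and 3.85 CPM in control, 141, 111 and 96.9 in vehicle control and 2.94 and 4.64 in Nap only, a difference of 4.82 ± 0.16 (adjusted p = 9.1e-11). NR4A3 rose by 4.39 ± 0.33 from 9, 3 and 2 reads, and NR4A2 by 2.56 ± 0.18, from 2.07 to 2.31 CPM up to 11.0 to 14.2.

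Of the 26 immediate early genes listed, 24 passed the filter on low counts, and 20 of the 24 were higher and 0 lower in vehicle control, against 12.6% higher and 11.5% lower over all protein-coding genes tested. Their median was 2.33 log2 units, where that of all genes tested was -0.01. EGR4 and KLF2 were not tested. The 4 that did not pass were IER3 (-0.57), MYC (0.27), KLF4 (0.22) and IER5 (0.03), named here after their values were seen. Among the rest, IER2 rose by 2.46, the mRNA decay factor ZFP36 by 2.28, KLF6 by 1.24, BTG2, an antiproliferative factor, by 0.99 and KLF10 by 0.31. SRF itself, the factor that acts on many of these genes, rose by 1.06 ± 0.11, from 32.6 to 38.2 CPM in control to 54.5 to 81.2 in vehicle control. The same list held 20 higher and 0 lower against Nap only, and 0 of its 20 tested members were called between Nap only and control.

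**Figure D2:**
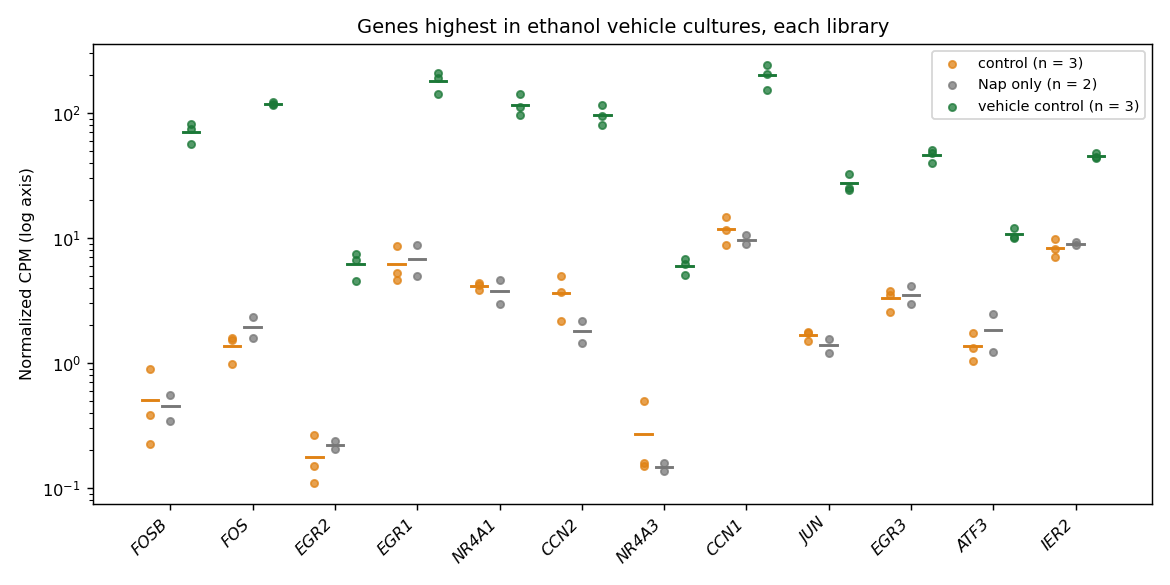
Normalized CPM (log axis) in each library for 12 of the genes with the largest increases, with points for cultures and bars for group means of control (n = 3), Nap only (n = 2) and vehicle control (n = 3). The 3 vehicle control cultures lay above all other cultures for every gene shown, while Nap only lay near control.

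The promoters of these genes are shown because members of the class moved together. The 250 bases before the gene start are given 5′ to 3′ on the gene's strand, from RefSeq on GRCh38.p14, with each CArG box in capitals.
EGR1 (chr5:138465229-138465478, plus strand): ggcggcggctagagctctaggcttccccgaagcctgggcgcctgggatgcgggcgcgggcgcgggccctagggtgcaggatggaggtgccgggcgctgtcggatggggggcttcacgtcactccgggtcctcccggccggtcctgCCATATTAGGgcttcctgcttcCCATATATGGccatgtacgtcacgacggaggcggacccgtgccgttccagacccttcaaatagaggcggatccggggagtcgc
EGR2 (chr10:62816367-62816616, minus strand, 1 of 3 starts listed): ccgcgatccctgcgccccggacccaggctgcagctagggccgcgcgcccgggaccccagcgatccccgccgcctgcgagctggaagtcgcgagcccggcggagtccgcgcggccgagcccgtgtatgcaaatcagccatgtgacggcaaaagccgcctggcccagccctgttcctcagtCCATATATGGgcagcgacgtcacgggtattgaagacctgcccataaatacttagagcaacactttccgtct
SRF (chr6:43171019-43171268, plus strand, 1 of 2 starts listed): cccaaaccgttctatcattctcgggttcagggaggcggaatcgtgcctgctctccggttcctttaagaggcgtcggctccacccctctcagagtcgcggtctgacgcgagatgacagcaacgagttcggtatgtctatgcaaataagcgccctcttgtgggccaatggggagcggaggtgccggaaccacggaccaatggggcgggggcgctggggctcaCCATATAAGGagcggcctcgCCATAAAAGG
FOS (chr14:75278578-75278827, plus strand): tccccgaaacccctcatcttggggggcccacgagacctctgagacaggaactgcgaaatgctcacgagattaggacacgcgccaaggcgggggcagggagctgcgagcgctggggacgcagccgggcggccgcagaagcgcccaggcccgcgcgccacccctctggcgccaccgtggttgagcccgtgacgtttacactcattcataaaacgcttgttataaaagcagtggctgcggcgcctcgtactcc
EGR1 held 2 boxes, which began 105 and 83 bases before the start, EGR2 held 1 at 71 bases, and SRF held 2 at 30 and 10 bases. The FOS window held none. Bases beyond these 250 were not searched, so a box further from the FOS start would not be seen.

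A CArG box on either strand was found in 3 of the 16 called immediate early genes with a RefSeq promoter (EGR1, EGR2 and SRF) and in 1.17% of all 34788 promoters of that length. The cyclic AMP response element TGACGTCA, which reads the same on both strands, was found in 1 of the 16 (JUND) against 1.64% of all. The AP-1 site TGANTCA was found in 0 against 6.59%, and the EGR site GCGNGGGCG in 4 (BTG2, EGR1, KLF6 and SRF) against 8.41%, where matches could overlap those of other motifs. EGR2 and SRF were counted with a box at only 1 of their 3 and 2 listed starts. The shares over all are per promoter, 34788 for 27305 gene symbols, so genes and promoters are unlike units. A match describes these letters in this window and was not read as a binding site.

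Of 15 feedback genes of the MAP kinase pathway tested, 8 were higher and 0 lower (median 0.34), against 12.6% higher over all protein-coding genes tested. The dual-specificity phosphatases DUSP5, DUSP1 and DUSP2, which remove phosphate from MAP kinases, rose by 2.46 ± 0.20, 2.12 ± 0.21 and 1.84 ± 0.21. DUSP5 was at 1.66 to 2.07 CPM in control and at 7.68, 12.5 and 10.3 in vehicle control. SPRY2, an inhibitor of receptor tyrosine kinase signalling, rose by 0.59, whereas DUSP6, a phosphatase of ERK (0.26, adjusted p = 0.052), SPRY4 (0.30) and the ETS factors ETV4 (0.26) and ETV5 (0.11) did not pass the test. The count fell to 5 without vehicle control replicate 2 and to 4 without replicate 3. In the EGF receptor family and its ligands, EGFR (0.28 ± 0.08) was the only one of 9 called, 11.1% against 24.0% of all protein-coding genes. It was at 0.10 (adjusted p = 0.26) with offsets for length and GC content, and the count was 0 without vehicle control replicate 2 or 3 and 3 without control replicate 2. The ligands AREG (0.58) and HBEGF (0.41) did not pass.

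Targets of SRF with its actin-regulated cofactors, and of the Hippo pathway factor YAP, were split. The matricellular genes CCN2 and CCN1, listed in the table as CTGF and CYR61, rose by 4.80 ± 0.24 and 4.13 ± 0.25. CCN2 was at 4.94, 2.18 and 3.69 CPM in control, 80.0, 116 and 95.3 in vehicle control and 2.15 and 1.43 in Nap only. CCN1 was at 14.8, 8.86 and 11.6 in control and at 154, 243 and 203 in vehicle control. Both stood far above control in every vehicle control culture. Other genes of the list rose little, among them TPM1, an actin filament protein (0.71), CNN2 (0.27) and AMOTL2 (0.50). ANKRD1 (0.24), THBS1 (0.07) and LATS2 (0.27) did not pass. The smooth muscle actin-binding gene TAGLN fell by 1.43 ± 0.11, from 61.5, 44.1 and 51.7 CPM to 18.5, 20.2 and 18.2, and the myosin light chain MYL9 fell by 0.45. In all, 6 of 15 tested were higher and 2 lower (median 0.24), 53.3% called against 24.0% of all protein-coding genes. Of the list, 5 were called without control replicate 3 or without vehicle control replicate 2 or 3. CNN2 also lost its call without vehicle control replicate 1.

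A few stress and signalling genes rose in lists that held no more calls than the background. NFKBIZ, a nuclear regulator of NF-kB, rose by 1.51 ± 0.17 and PTGS2, the inducible cyclooxygenase, by 1.37 ± 0.11, from 9.06, 9.82 and 11.1 to 24.5, 26.3 and 24.3 CPM. These were the only 2 of 10 tested NF-kB and inflammatory genes that passed (against 24.0% of all protein-coding genes), and 11 further genes of that list, IL6, CXCL8 and TNF among them, were too low to test. GADD45B, a stress sensor, rose by 1.45 ± 0.22, one of 2 higher and 1 lower of 17 p53 targets and CDK inhibitors (17.6% called), but was not called with all 4 groups in the fit (adjusted p = 0.13), while CDKN1A (0.47, adjusted p = 0.16) and MDM2 (0.15) did not pass. Of that list 5 were called without control replicate 2. MAFF, a small MAF factor, had 3, 15 and 1 reads in control and 20, 62 and 50 in vehicle control (3.48 ± 0.39).

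Among Notch pathway genes, 6 of 15 tested were higher and 0 lower (median 0.36), 40.0% called against 24.0% of all protein-coding genes. HES1, a repressor that Notch and other signals induce, was at 44.4, 49.0 and 46.4 CPM in control, 121, 174 and 152 in vehicle control and 45.4 and 44.5 in Nap only, a rise of 1.72 ± 0.10 (adjusted p = 3.9e-10). The ligand JAG2 rose by 0.67, the receptors NOTCH1 and NOTCH3 by 0.41 and 0.43, the feedback gene NRARP by 0.56 and HEYL by 0.72. With offsets for length and GC content NOTCH3 was at 0.15 (adjusted p = 0.14). JAG1 (-0.11) and HEY1 (-0.06) did not pass.

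Heat shock genes were called in both directions, 7 of 15 higher and 3 lower (median 0.38), 66.7% called against 24.0% of all protein-coding genes. HSPA1B, the stress-inducible HSP70, rose by 0.92 ± 0.11, from 11.6 to 13.0 CPM to 21.7 to 24.2. Its near-identical copy HSPA1A gave 0.90 (adjusted p = 0.053), and reads that map to both were not counted. The cochaperones DNAJB1 and BAG3 rose by 0.59 and 0.65 and the constitutive HSPA8 by 0.38. The mitochondrial chaperonins HSPD1 and HSPE1 fell by 0.25 and 0.34, and HSP90AB1 fell by 0.30. HSPD1 lost its call without control replicate 1 or any one vehicle control, and HSPE1 with offsets for length and GC content (-0.21, adjusted p = 0.054).

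Genes of the unfolded protein response and of ATF4 were 6 of 22 higher and 2 lower (median 0.07). This was 36.4% called, against 24.0% of all protein-coding genes (12.6% higher and 11.5% lower). The ER chaperone HSPA5 rose by 0.86 ± 0.11 (151, 117 and 121 CPM in control against 187, 249 and 252), HERPUD1, of ER-associated degradation, by 0.91 ± 0.08, and DDIT3, which encodes CHOP, by 0.94 ± 0.14. The other ER chaperones HSP90B1 (-0.04), PDIA4 (-0.05) and CALR (0.03) did not pass, nor did TRIB3 (-0.08). SHMT2 and PSAT1, enzymes of serine and one-carbon metabolism, fell by 0.49 and 0.30, and PSAT1 was at -0.11 (adjusted p = 0.20) with offsets for length and GC content. With all 4 groups in the fit HSPA5 was not called (adjusted p = 0.18).

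The transcripts of the mitochondrial genome did not move as one. Of 13 protein-coding genes, 8 were higher and 0 lower in vehicle control (median 0.84), 61.5% called against 24.0% of all protein-coding genes. MT-ND5 rose by 1.34 ± 0.27, MT-ND2 by 1.29 ± 0.27, MT-ND4 by 1.13 ± 0.22 and MT-CYB by 1.09 ± 0.21, but MT-CO1 only by 0.37 ± 0.10. MT-CO3 (0.12), MT-CO2 (0.28), MT-ND3 (0.22), MT-ATP8 (0.30) and MT-ND6 did not pass. The 12S rRNA gene MT-RNR1, named after its values were seen, was at 6583, 8131 and 5712 CPM in control and at 10590, 14840 and 14750 in vehicle control, a rise of 1.01 ± 0.13 (adjusted p = 0.00011). The 16S rRNA gene MT-RNR2 did not pass (0.07 ± 0.15, adjusted p = 0.78). Vehicle control replicate 1, the smallest library, was the lowest of the 3 for each of the 8 genes called. The count of 8 fell to 0 without control replicate 3, to 3 without vehicle control replicate 2 or 3, to 4 without control replicate 1 and to 5 without control replicate 2. Against Nap only, 5 were higher: MT-ND2 and MT-CO1 of these 8, with MT-ND3, MT-CO3 and MT-ATP8. The other 6 of the 8 did not pass there, with adjusted p from 0.052 to 0.072.

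**Figure D3:**
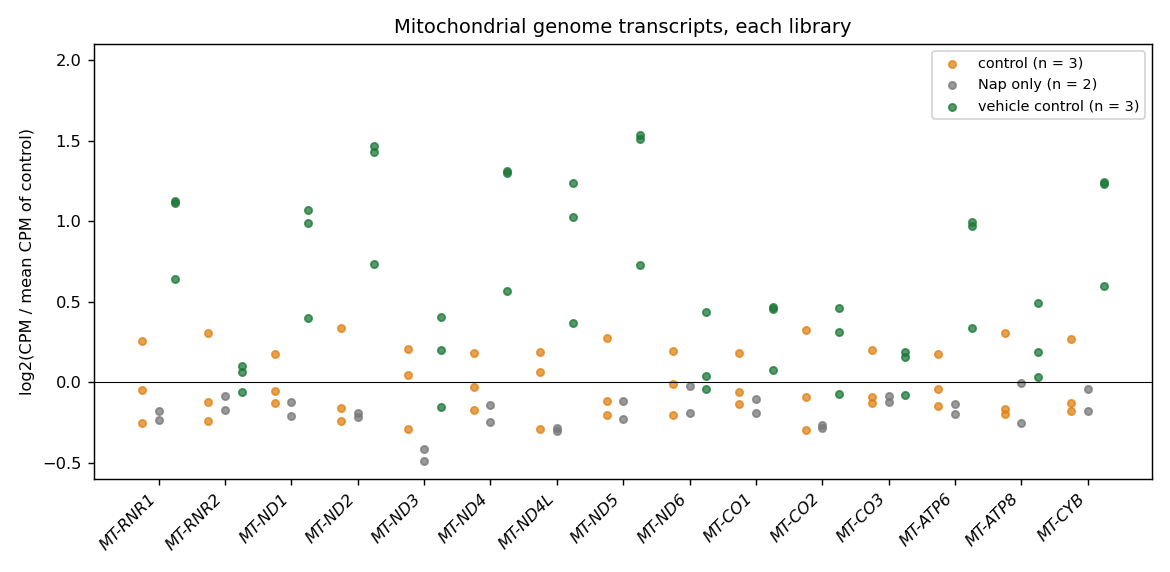
log2 of the normalized CPM of each library over the mean of the control cultures, for the 2 rRNA genes and 13 protein-coding genes of the mitochondrial genome, with 1 point per culture. Vehicle control points lie above control for MT-RNR1, MT-ND5 and MT-CYB and overlap control for MT-RNR2 and MT-CO3.

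The decreases were smaller than the increases. TNC (chr9:115019578-115118257), an extracellular matrix glycoprotein of the tenascin family, was at 254, 224 and 227 CPM in control, 85.8, 81.4 and 81.9 in vehicle control and 235 and 229 in Nap only. The groups lay far apart, with a difference of -1.47 ± 0.08 (adjusted p = 4.3e-12), or 2.78-fold lower. Genes of the extracellular matrix and the integrins, TNC among them, were called in both directions, 7 of 31 higher and 5 lower (median 0.00). This was 38.7% called, against 24.0% of all protein-coding genes. The collagens COL12A1, COL1A2 and COL6A1 fell by 0.78 ± 0.07, 0.53 ± 0.10 and 0.32 ± 0.08, while the basement membrane genes LAMA5, HSPG2 and COL7A1 rose by 0.85 ± 0.09, 0.83 ± 0.08 and 0.41 ± 0.09. With offsets for length and GC content LAMA5 and HSPG2 were at 0.43 and 0.39, still called, and COL7A1 was at 0.06 (adjusted p = 0.61). COL1A2 was not called with all 4 groups in the fit (adjusted p = 0.21). The 12 calls fell to 6 without vehicle control replicate 3, COL6A1 among those lost, and the rise of AGRN (0.25 ± 0.07) turned to -0.14 (adjusted p = 0.074) with the same offsets. Integrins ITGA5 (0.10), ITGAV (-0.10) and ITGB1 (-0.16) did not pass.

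TXNIP, a thioredoxin-binding arrestin that responds to glucose, fell by 1.39 ± 0.17, from 44.8, 71.2 and 54.1 to 22.5, 19.1 and 22.5 CPM. DHRS3, which reduces retinaldehyde to retinol, fell by 1.19 ± 0.12, from 30.9, 24.9 and 27.4 to 12.9, 10.6 and 12.8. GCNT2, a glycosyltransferase that branches I antigen chains, fell by 1.13 ± 0.14 and TNNC1, a troponin C, by 1.14 ± 0.18. HINT2 (-1.52), C6orf52 (-1.87), CHRNA9 (-1.46), TMEM178A (-1.41), RNASEK (-1.41), NDP (-1.28), SERPINF1 (-1.25), MAGEA1 (-1.22) and KLHDC9 (-1.13) completed the 15 largest decreases. Each of these 9 had 1 to 7 reads in vehicle control replicate 1, and CHRNA9 lost its call without vehicle control replicate 2 and NDP without replicate 3. MAGEA1 and KLHDC9 lost theirs without any one of 4 libraries.

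PGR, the progesterone receptor gene, fell by 0.93 ± 0.08, from 104, 117 and 118 CPM in control to 48.9, 60.8 and 62.3 in vehicle control, with 103 and 146 in Nap only (adjusted p = 6.8e-08). The estrogen receptor gene ESR1, named after its value was seen, gave 0.02 (adjusted p = 0.90). In the list of steroid receptors and progestin targets, 33.3% of 12 tested were called, against 24.0% of all protein-coding genes. The clock gene PER1 (0.93) and the receptor cochaperone FKBP5 (0.52) were the 2 higher. PGR and the alkaline phosphatase ALPP (-0.54) were the 2 lower. ALPP lost its call without control replicate 2 or 3 or vehicle control replicate 1 or 3.

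**Figure D4:**
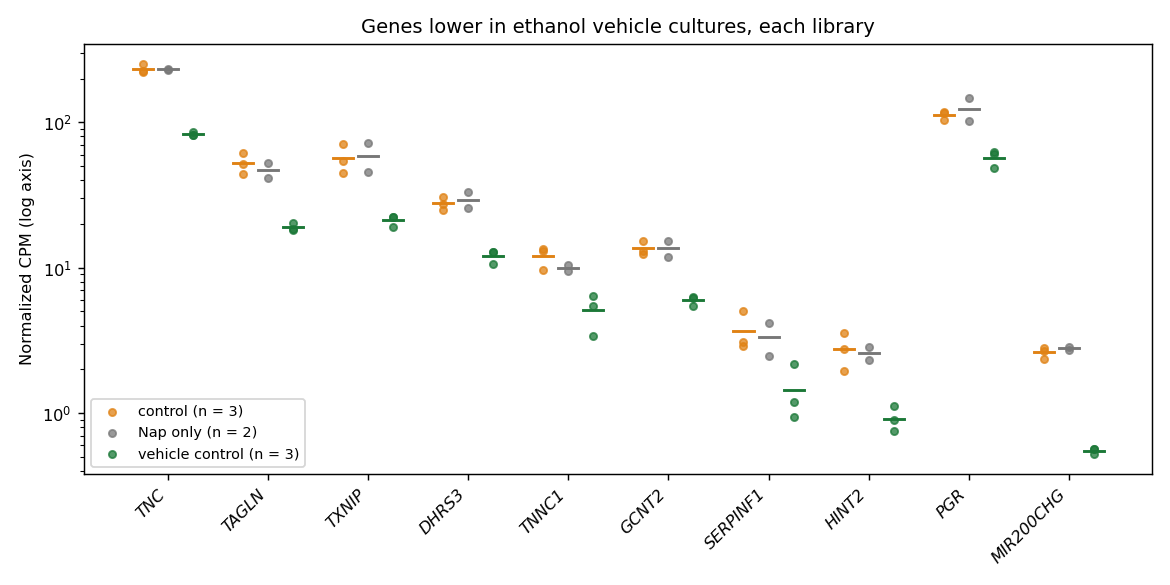
Normalized CPM (log axis) in each library for 10 genes with lower levels in vehicle control, with points for cultures and bars for group means of control (n = 3), Nap only (n = 2) and vehicle control (n = 3). The 3 vehicle control cultures lay below all control and Nap only cultures for every gene shown, TNC at 81.4 to 85.8 against 224 to 254 in control.

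Metabolic genes that were called were mostly lower, by small amounts. Of 17 hypoxia and glycolysis genes, 7 were lower and 0 higher (median -0.29), 41.2% called against 24.0% of all protein-coding genes. PGK1 fell by 0.59 ± 0.10, LDHA by 0.46 ± 0.09, ENO1 by 0.46 ± 0.08 and PKM by 0.34 ± 0.08, and VEGFA, PDK1 and SLC2A1 by 0.25, 0.29 and 0.29. BNIP3 (-1.30, adjusted p = 0.17) did not pass, and the controls alone ran from 17.3 to 53.8 CPM, highest in replicate 2. For vehicle control against Nap only, 5 of the list were lower and 2 higher. VEGFA (-0.18, adjusted p = 0.11) and SLC2A1 (-0.04, adjusted p = 0.71) did not pass there. SLC2A1 was at -0.23 in Nap only against control. GAPDH, often used as a reference gene, fell by 0.47 ± 0.10 (2341, 2973 and 2202 CPM against 1705, 1760 and 1854), whereas ACTB, another, rose by 0.33 ± 0.08 (1637, 1342 and 1351 against 1682, 1836 and 1798) and lost its call without vehicle control replicate 2 or 3.

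Of 21 genes of alcohol and acetaldehyde metabolism, 14 could be tested, and the classical alcohol dehydrogenases ADH1A, ADH1B and ADH1C and CYP2E1 were too low to test. ADH5, the ubiquitous class III enzyme, fell by 0.29 ± 0.07 (108, 110 and 113 CPM against 87.1, 86.2 and 91.8). ALDH2, the mitochondrial enzyme that clears most acetaldehyde, fell by 0.39 ± 0.10, ALDH1B1 by 0.37 and ALDH9A1 by 0.30, while ALDH3A1 rose by 0.32 ± 0.09. These were 4 lower and 1 higher of 14 (median -0.11), 35.7% called against 24.0% of all protein-coding genes. They became 2 calls without vehicle control replicate 1 and 3 without replicate 2 or 3. ADH5 lost its call without vehicle control replicate 2, ALDH2 without replicate 3, ALDH9A1 without replicate 1 and ALDH1B1 without replicate 1 of either group, while ALDH3A1 lost it in 7 alternatives, among them leaving out any one library but control replicate 1. Of 19 antioxidant genes of NRF2, 26.3% were called, near the 24.0% of all protein-coding genes. The ferritin heavy chain FTH1 (0.83 ± 0.09) was the 1 higher, and 4 were lower, with TXN at -0.46 and NQO1 at -0.21 (median -0.08). With offsets for length and GC content these 2 were at -0.21 and -0.12, and only TXN was called. HMOX1 (0.45, adjusted p = 0.14), GCLM (0.03) and SLC7A11 (-0.10) did not pass. The 5 calls became 3 without control replicate 1 or vehicle control replicate 3 and 2 without vehicle control replicate 1 or 2, and NQO1 was lost without control replicate 3 or any one vehicle control.

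In lipid genes, 4 of 24 cholesterol synthesis and uptake genes were lower and 0 higher, 16.7% called against 24.0% of all protein-coding genes, with HMGCS1 at -0.32 and INSIG1 at -0.36, and the count was 8 without control replicate 2 and 2 without control replicate 3 or any one vehicle control. INSIG1 lost its call without control replicate 3. Of 16 fatty acid and lipid storage genes, FASN (0.48) and ACACA (0.20) were higher and SREBF1 (-0.24) lower, 18.8% called against 24.0% of all. With offsets for length and GC content FASN was at 0.16 (adjusted p = 0.067) and ACACA at 0.01 (adjusted p = 0.93), and ACACA lost its call in 9 alternatives in all and SREBF1 in 4. SCD (0.06) did not pass, and the 3 calls became 5 without control replicate 2 and 1 without control replicate 1 or vehicle control replicate 2 or 3.

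Growth-related genes differed by small amounts as well. Of 32 cytosolic ribosomal protein genes, 20 were lower and 0 higher (median -0.28), 62.5% called against 24.0% of all protein-coding genes. RPL27 was at -0.40 ± 0.08 and RPS23 at -0.37 ± 0.07. The count was 8 without vehicle control replicate 1 and 12 without replicate 2 or 3, and reads shared with their many processed pseudogenes were not counted. Of 20 mitosis genes, 11 were lower and 2 higher (median -0.20), 65.0% called against 24.0% of all protein-coding genes. AURKA, a spindle kinase, fell by 0.39 ± 0.08, BIRC5 by 0.33 ± 0.07 and the cyclins CCNB1 and CCNB2 by 0.31 and 0.28, while MKI67 rose by 0.36 ± 0.09 and AURKB by 0.28 ± 0.09. The 13 calls became 8 without vehicle control replicate 1, 4 without replicate 2 and 3 without replicate 3. MKI67 lost its call without replicate 2 or 3, CCNB2 without replicate 3, and AURKB without any of these or control replicate 3. DNA replication genes were 3 of 19 lower, PCNA (-0.32), RRM1 (-0.26) and FEN1 (-0.22), and 1 higher, TYMS (0.71 ± 0.09). This was 21.05% called, against 24.0% of all protein-coding genes. In that list 2 were called without vehicle control replicate 2 or 3, where RRM1 and FEN1 were lost. With offsets for length and GC content MKI67 was at 0.17 (adjusted p = 0.11), PCNA at -0.12 (adjusted p = 0.12), CCNB2 at -0.15 (adjusted p = 0.074) and CCNB1, still called, at -0.15.

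**Figure D5:**
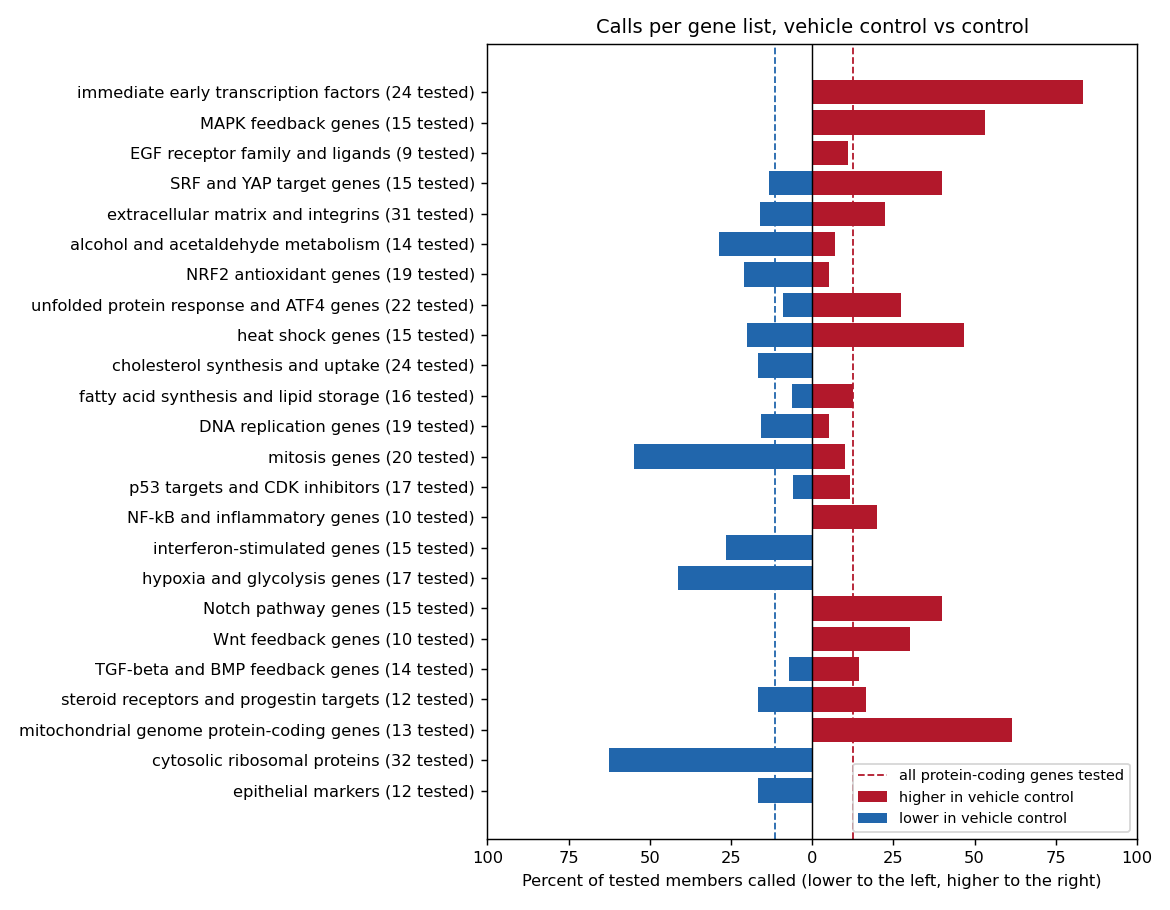
Share of tested members called higher (right, red) and lower (left, blue) in vehicle control for each gene list with at least 8 members tested, and dashed lines for the share over all protein-coding genes (12.6% higher, 11.5% lower). Immediate early transcription factors have the longest bar to the right (20 of 24), and ribosomal protein genes the longest to the left (20 of 32).

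The remaining pathway lists held 3 or 4 calls each, set here beside the 24.0% called over all protein-coding genes. Of 15 interferon-stimulated genes, IFIT1 (-0.71), IFIT2 (-0.48), IFIT3 (-0.82) and DDX58 (-0.30) were lower and 0 higher (26.7% called). Of the list, 2 were called without vehicle control replicate 2 and 1 without control replicate 3 or vehicle control replicate 3. In Wnt feedback genes, 3 of 10 (30.0%) were higher, LEF1 (0.57), RNF43 (0.60) and TCF7 (0.50). However, 0 were called with DESeq2 or without control replicate 3 or vehicle control replicate 2 or 3. LEF1 was also at 7.24 and 8.46 CPM in Nap only, against at most 6.32 in control. In TGF-beta and BMP feedback genes, TGFB1 (0.61) and TGFBI (0.48) were higher and the BMP antagonist GREM1 (-1.05) lower of 14 (21.4% called). GREM1 was not called without vehicle control replicate 2 or 3.

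Of 3818 genes tested that are not annotated as protein-coding, 674 were called (17.7%), 360 higher (9.43%) and 314 lower (8.22%). AC105046.1, which lies beside EGR3 (chr8:22679013-22684009), rose by 6.15 ± 0.48, from 4, 1 and 6 reads to 44, 278 and 205. The strand setting of the counting is not given in the sources used here, so reads of overlapping or antisense genes cannot be told apart. MIR200CHG, the host transcript of 2 microRNAs of the miR-200 family that mark epithelial cells, fell by 2.23 ± 0.31, from 2.69, 2.81 and 2.34 CPM to 0.562, 0.519 and 0.567, with 2.71 and 2.87 in Nap only. Reads in vehicle control were only 3, 7 and 7.

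The epithelial markers that define the line were present. All 12 lay above the detection floor in control and vehicle control, with a summed level of 1448 to 1700 CPM in control and 1428 to 1476 in vehicle control. EPCAM (-0.23) and KRT7 (-0.64) were the 2 called, both lower, 16.7% against 24.0% of all protein-coding genes. Of the 12, 0 were called without vehicle control replicate 1 or 3 and 4 without control replicate 2. Of 9 stromal fibroblast markers, the summed level was 174 to 224 CPM in control and 130 to 147 in vehicle control, with VIM at -0.46 and ZEB1 at 0.47, while DCN was at or under the floor in both. ZEB1 lost its call in 9 alternatives, among them DESeq2 and leaving out any one library but control replicate 1. The stromal sum was lower in vehicle control, as were TNC and the collagens COL12A1, COL1A2 and COL6A1. Other collagens, COL7A1 (0.41) and COL18A1 (0.23), were higher. The part of stromal marker levels in those results was not tested. Endothelial markers summed to 1.27 to 1.73 CPM in control and 0.667 to 1.31 in vehicle control, with PECAM1 and CDH5 at 0 in both, and leukocyte markers to 1.91 to 2.47 and 2.82 to 3.56. Of these 2 lists only VWF (-0.67) and NCAM1 (0.54) were tested, and neither passed. In bulk RNA, fewer cells of a type and less RNA per cell cannot be told apart.

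The direct comparison of vehicle control with Nap only gave like values for the genes with the largest changes. The differences were 5.92 ± 0.12 for FOS, 7.35 ± 0.24 for FOSB, 3.74 ± 0.14 for EGR3, 4.91 ± 0.32 for NR4A1 (adjusted p = 0.0011), 5.82 ± 0.22 for CCN2 and -1.46 ± 0.06 for TNC, each past the threshold. PGR differed by -1.07 ± 0.19 (adjusted p = 0.023) and HES1 by 1.77 ± 0.13. Exceptions among the named genes, beside the mitochondrial genes above, included C6orf52 (-1.17, adjusted p = 0.077), KLHDC9 (-0.55, adjusted p = 0.40) and LEF1 (0.04, adjusted p = 0.91).

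Cultures treated with P4, whose labels name Nap and P4 without ethanol, had levels of several of these genes far from control too. FOS was at 115, 85.8 and 96.6 CPM, FOSB between 48.9 and 62.3, EGR3 at 11.0, 7.05 and 7.94, NR4A1 at 52.5, 21.6 and 24.6 and TNC at 120, 115 and 127 in P4 replicates 1, 2 and 3. FOS and FOSB in P4 thus came near the vehicle control, whereas EGR3 and NR4A1 lay between control and vehicle control. Whether P4 cultures also received ethanol is not given in their labels. The paper, however, used ethanol as the vehicle control for progesterone and set P4 cultures against it. Ethanol and P4 cannot be told apart in the P4 cultures here.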

How the data were processed

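RNA-seq counts of 3 control and 3 vehicle control cultures were analysed, with 2 Nap only and 3 P4 cultures beside them. A further 6 libraries whose titles contradict their column names were left without a group. The authors deposited raw counts of uniquely mapped reads per gene of GENCODE 31, made with featureCounts after Cutadapt trimming, a quality filter and Subread alignment. Tool versions and the strand setting are not given in the sources used here. The study tested with DESeq2.

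From the deposited counts, edgeR 4.0.16 in R 4.3.3 was run after TMM scaling and a filterByExpr minimum count of 10, as a robust quasi-likelihood test over all genes of each pair of groups, with Benjamini-Hochberg adjustment. Genes under an adjusted p of 0.05 were called, and calls were counted over protein-coding genes unless noncoding genes are named. Values are log2 fold changes with SE (the fold change over the square root of F) and TMM-normalized CPM. Nothing says that cultures were separate passages, so p-values measure the spread between these libraries. Gene names, types and positions are from GENCODE 29 on GRCh38, which holds 58587 of the 60662 genes, and 2054 more were named from a table of names. The method was tested on simulated counts for vehicle control against control: of 16681 genes, 88 of 100 changed 2-fold and 61 of 100 changed 1.5-fold were called, as were 9 unchanged genes. Every simulated gene had the same dispersion (0.0056), and no simulated library stood apart as control replicate 2 did. These counts therefore need not hold for the real libraries. DESeq2 1.42.0, other scalings, filters and groups in the fit, thinning, a replicate block and leaving out each library were alternatives, and offsets for gene length and GC content were chosen after seeing the data.

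The comparison, the 27 gene lists and the naming rule were chosen with earlier results of these data known. The text names FOS, FOSB, EGR3, NR4A1 and TNC, the 15 largest and 15 smallest called fold changes at a mean of at least 1 CPM with no overlap between groups, up to 4 called members per direction in each list, up to 3 noncoding genes and 5 genes of highest level per direction. Not all genes under the rule are printed, and list members that did not pass, or passed beyond the first 4, were chosen after their values were seen.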

Additional observations from a re-analysis of the deposited data

Results flagged for a closer look

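Some of the 6 libraries without a group, all of PSAT1 experiments by their titles, held levels of 4 genes above the highest control culture. The values are CPM of the library total without normalization. Above that culture were 4 of the 6 for FOS, 3 for FOSB, 5 for NR4A1 and 4 for EGR3. FOS was at 1.08, 1.45, 1.69, 85.5, 86.2 and 104.7 in ascending order, where the highest control was 1.65. FOSB was at 0.317, 0.395, 0.661, 44.9, 47.8 and 52.0 against 0.863. NR4A1 was at 4.02, 4.83, 5.72, 17.9, 21.5 and 36.6 against 4.55, and EGR3 at 3.56, 3.81, 4.55, 5.28, 5.84 and 9.33 against 3.93. These libraries entered no comparison, since their titles and column names assign the treatments differently. TNC was at 112 to 248 in them, with 3 below the lowest control (214).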

How the results depend on the processing

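The number of protein-coding genes called between vehicle control and control (3089) was 2317 with DESeq2, 3062 and 3032 with RLE and upper-quartile scaling, 3011 without a filter, 3147 with at least 10 counts in every library, 2512 with all 4 groups in the fit, 2206 after thinning, 2698 with length and GC offsets, and 1563 to 3414 when 1 library was left out. The 143 genes beyond 1 log2 unit became 88 with DESeq2 and 83 with at least 10 counts in every library. Replicate numbers did not pair the cultures: deviations of same-numbered control and vehicle control cultures correlated at 0.05, 0.07 and -0.003 over 15700 genes, and the replicate block called 3485. Between Nap only and control the 0 genes called became 19 with the replicate block, all lower, and 0 to 1 when a library was left out. Between vehicle control and Nap only the 3479 called became 1961 with DESeq2, 1605 with all 4 groups in the fit, 2304 after thinning and 2025 to 3311 when a library was left out. For the 137 named genes, 1797 of 2014 values under alternatives kept direction and side of the threshold, 216 kept the direction only, and AGRN reversed to -0.135 (adjusted p = 0.0741) with length and GC offsets. Of these genes 40 lost their call without vehicle control replicate 3, 36 without replicate 2, 27 without replicate 1 and 24 without control replicate 3. In every alternative that gave them an adjusted p, 77 passed. Some of these were not tested in all 15 alternatives, such as FOSB (14) and C6orf52 (12). The depth of vehicle control replicate 1 limits genes with few reads most. The causes of these changes were not tested.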
